A study of Mus musculus with 20 samples.

Results

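Fatty acid oxidation was described here through 42 genes that carry a fatty acid from the plasma membrane to acetyl-CoA, or divert it into storage. The members were taken by gene symbol from the GENCODE annotation of GRCm38 and sorted into 8 steps, and all 42 were found among the 47069 genes counted in heart and the 53801 counted in skeletal muscle. RNA was sequenced from hearts of 5 Taz-KD and 5 WT mice, and from femur muscle of 5 other Taz-KD and 5 other WT mice. Taz-KD animals carry a tetracycline-regulated hairpin RNA against Taz, the gene of the cardiolipin transacylase tafazzin, at the ROSA26 locus. Their reference was WT C57BL/6N. All mice were 20 weeks old and all of them, WT included, ate chow with 625 mg/kg doxycycline, so the inducer itself is shared by both genotypes. The hairpin's promoter (H1 with a tet operator) is not specific to a cell type. Whole tissue was sequenced, so that fewer cells of a type and less RNA per cell cannot be told apart.

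Long-chain fatty acids enter the cardiomyocyte through transport proteins, are bound by a cytosolic carrier and are esterified to coenzyme A by acyl-CoA synthetases. The carnitine shuttle then moves the acyl group across the mitochondrial membranes, and in the matrix each turn of the spiral (dehydrogenation, hydration, a further dehydrogenation and thiolysis) releases acetyl-CoA. Electrons of the acyl-CoA dehydrogenases reach ubiquinone through the electron transfer flavoprotein and its oxidoreductase. Malonyl-CoA inhibits the entry step of the shuttle, peroxisomes shorten very long and branched chains, and triglycerides buffer the supply. The adult heart draws most of its energy from this pathway.

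Counts assigned to genes totalled 30248445 to 35301909 in Taz-KD hearts and 26963288 to 30090918 in WT hearts, and 46985694 to 74361382 in Taz-KD muscles and 36429399 to 61100247 in WT muscles. Values are given as CPM, counts divided by the library size after scaling with TMM factors within a tissue, and the lowest raw count of any member was 111 in heart and 193 in muscle. Taz measured 11.0 to 12.9 CPM in Taz-KD hearts, against 36.0 to 39.2 CPM in WT hearts, or 30.8% of the WT mean, and 12.7 to 15.2 CPM in Taz-KD muscles, against 45.9 to 54.8 CPM in WT muscles, or 26.0% (exact two-sided permutation test, p = 0.00794 in each tissue, the smallest that 5 against 5 allows). Cardiomyocyte markers in heart summed to 37755 to 51736 CPM in Taz-KD hearts, against 38426 to 52282 CPM in WT hearts, and 0 of 6 passed (edgeR and limma-voom; 1 with DESeq2, and 1 at an unadjusted edgeR p under 0.05). A separate list of markers that cardiomyocytes share with slow skeletal fibres summed to 12171 to 14973 CPM in Taz-KD hearts, against 16087 to 19534 CPM in WT hearts. Of these, 3 of 5 tested were lower (Tnnt1, Myl3 and Atp2a2), so not all transcripts of heart muscle were level. Endothelial markers summed to 579.6 to 733 CPM in Taz-KD hearts, against 705 to 881 CPM in WT hearts (3 of 6 lower). Fast fibre markers summed to 534 to 1494 CPM in Taz-KD hearts, against 36.9 to 386 CPM in WT hearts, nearly all of it Acta1, with Myh4 at 0 in every heart, and 1 of 3 tested was higher. Adipocyte markers reached 75.2 CPM in the Taz-KD heart R1793 and 54.8 CPM in the WT heart R3, against 3.29 to 29.7 CPM in the remaining hearts (1 of 5 tested higher, Adig). Fibroblast and macrophage markers gave 0 calls of 6 each (edgeR, DESeq2 and limma-voom; 0 and 1 at an unadjusted edgeR p under 0.05). The part of these cells in the members' values was not tested.

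In heart, 18 of the 42 members passed the test of Taz-KD against WT (edgeR quasi-likelihood test, Benjamini-Hochberg adjusted p under 0.05 over 19486 genes). The background share called was 24.6%. Most of the 18 were lower: 14 members fell, where 10.3% of all genes tested did, and 4 rose, where 14.4% did. The median log2 fold change of the 42 members was -0.19, against -0.02 over all genes tested, and 28 of the 42 lay below 0. A median of this size was not particular to the members. Marker lists gave -0.13 (cardiomyocyte), -0.39 (slow fibre), -0.25 (endothelial), -0.28 (fibroblast) and -0.26 (macrophage), but 0.25 (fast fibre) and 0.70 (adipocyte). The genotypes did not overlap for 17 members, 13 lower and 4 higher, where 18.3% of all genes tested did not overlap. Falls were called along the mitochondrial route, from the synthetase Acsl1 through Cpt2 and Slc25a20 to the short-chain dehydrogenase Acads and the oxidoreductase Etfdh, whereas 3 of the 4 peroxisomal members rose. Fewer rises were called in most fits that left out a heart: 1 member was higher without the Taz-KD heart R1793 or R1797 or the WT heart R3 or R1800, and 2 were without the Taz-KD heart R2 or R1796 or the WT heart R1795. A joint fit of the 20 libraries of both tissues called 5 members in heart, all lower, where it called 10.1% of all genes. In skeletal muscle 0 of 42 members passed with edgeR, DESeq2 or limma-voom.

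**Figure D1:**
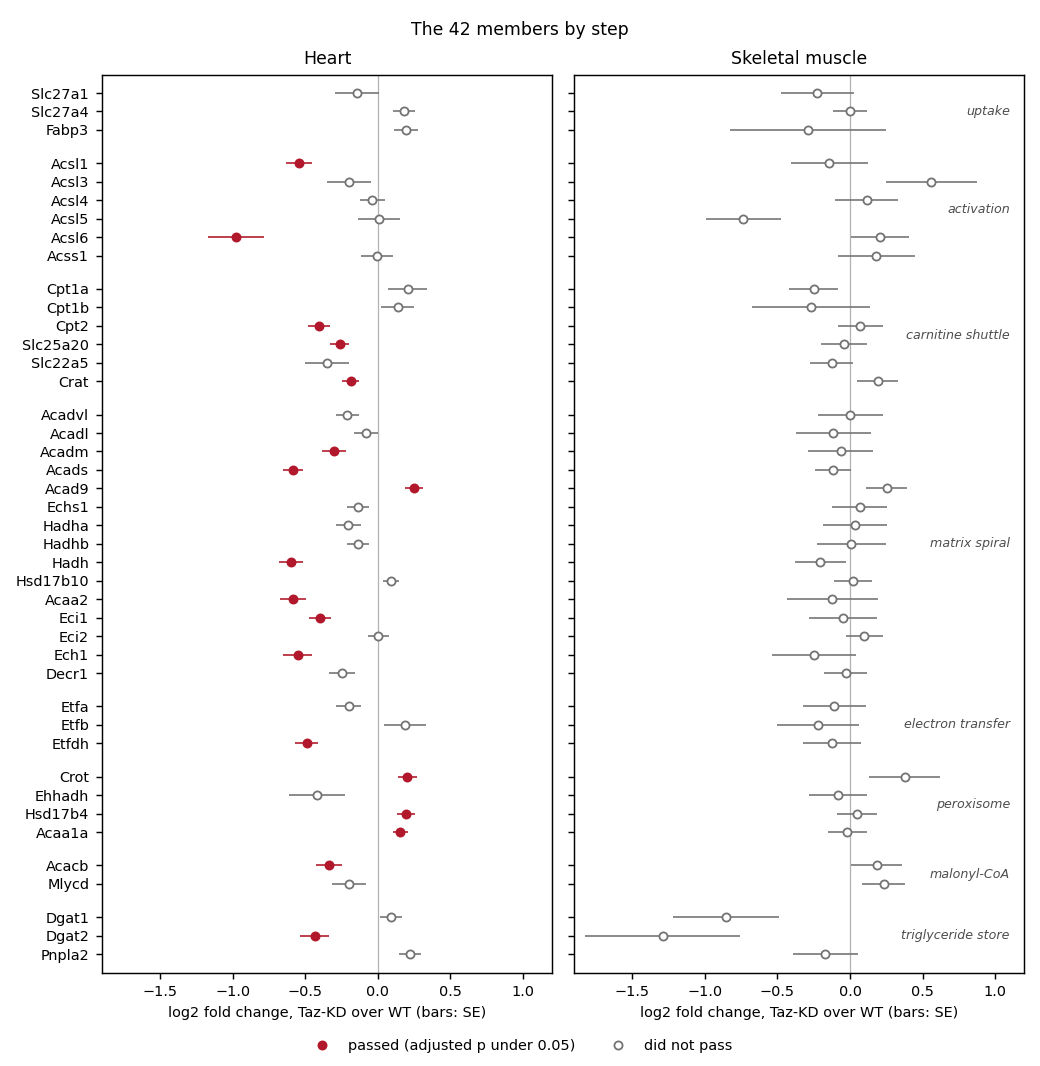
Log2 fold change of Taz-KD over WT (points) with its SE (bars) for the 42 members, in heart on the left and skeletal muscle on the right, ordered by step; filled red points passed the edgeR test. In heart 14 filled points lie left of 0 and 4 right of it, while in muscle none is filled and the bars are wider, most of all for Dgat2 (SE 0.54) and Fabp3 (SE 0.54).

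Uptake was the only step of the 8 without a call in heart (0 of 3 with edgeR, DESeq2 and limma-voom; 2 at an unadjusted edgeR p under 0.05). Fabp3, the cytosolic fatty acid carrier of heart and oxidative muscle, measured 1397, 1409, 1502, 1430.4 and 1472 CPM in Taz-KD hearts, against 1019, 1237, 1306, 1391 and 1352 CPM in WT hearts. Here and below, hearts are in the order R2, R1793, R1796, R1797 and R1798 for Taz-KD and R3, R1791, R1792, R1795 and R1800 for WT. Each Taz-KD heart lay above each WT heart, but the difference was small and did not pass (log2 fold change 0.19, SE 0.08, adjusted p = 0.115). The plasma membrane transporter Slc27a4 gave 21.4 to 25.0 CPM in Taz-KD hearts, against 18.3 to 23.0 CPM in WT hearts (log2 fold change 0.18, SE 0.08, adjusted p = 0.104), and Slc27a1, the insulin-responsive form, 135 to 181 CPM in Taz-KD hearts, against 129 to 227 CPM in WT hearts (log2 fold change -0.14, SE 0.15, adjusted p = 0.538). Fabp3 shares 161 exonic bases with genes on the other strand, and the strand setting of the counting is not given in the sources used here. Outside the 42, 2 of 8 listed uptake genes tested were lower, or 25%, where 10.3% of all genes were, and 0 were higher. These were Lpl, at 1761 to 3046 CPM in Taz-KD hearts, against 3095 to 4171 CPM in WT hearts, and Fabp5, at 10.1 to 15.1 CPM, against 18.2 to 20.4 CPM.

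In activation 2 of 6 members were called, both of them synthetases and both lower. Acsl1 (ENSMUSG00000018796, chromosome 8 from 46471037 to 46536051, GRCm38), the main long-chain acyl-CoA synthetase of heart, measured 575, 549, 529, 661 and 665 CPM in Taz-KD hearts, against 738, 945, 904, 889 and 852 CPM in WT hearts. The WT heart R3 was the lowest of its group and still above all Taz-KD hearts, and the test called the gene lower (log2 fold change -0.54, SE 0.09, adjusted p = 0.000886, edgeR). Acsl6 (ENSMUSG00000020333, chromosome 11 from 54303798 to 54364756), a synthetase best known from brain for its preference for polyunsaturated chains, fell furthest of all members and measured 7.71, 4.46, 5.01, 6.91 and 6.85 CPM in Taz-KD hearts, against 15.0, 15.7, 10.8, 10.6 and 8.60 CPM in WT hearts. All 5 Taz-KD hearts lay below all 5 WT hearts, with R1800 the lowest WT heart (log2 fold change -0.97, SE 0.19, adjusted p = 0.00347, edgeR). The other members of the step, Acsl3, Acsl4, Acsl5 and the mitochondrial acetate-activating enzyme Acss1, did not pass, with log2 fold changes from -0.20 to 0.01.

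Per length, Acsl1 and Acss1 led the step in heart. Median levels were 54.8 CPM per kb of exonic length for Acsl1 in Taz-KD hearts and 84.8 in WT hearts, and 77.2 and 74.5 CPM per kb for Acss1. Acsl4 followed at 4.48 and 4.75 CPM per kb, then Acsl5 at 3.23 and 3.36, Acsl3 at 1.13 and 1.31, and Acsl6 at 0.691 and 1.09. By this length Acsl6, which fell furthest, had the lowest median of the 6, although its range overlapped that of Acsl3 in WT hearts. The exonic length counts every annotated exon, 10483 bases for Acsl1 and 9914 for Acsl6. With the length of the longest principal transcript instead (an alternative chosen after seeing the data, 3897 and 2594 bases), the medians were 147 and 228 CPM per kb for Acsl1, 2.64 and 4.16 for Acsl6, 1.24 and 1.44 for Acsl3, and 3.71 and 3.85 for Acsl5, so that the place of Acsl6 depends on the length used: it then lay above Acsl3, and in WT hearts above Acsl5 too. In muscle Acsl6 stood at 3.07 CPM per kb in Taz-KD and 3.10 in WT, above Acsl5 at 1.01 and 1.39. Heart and muscle levels are only set side by side here, because Rn7sk, an RNA without a poly(A) tail, measured 7989 to 11240.0 CPM in hearts and 0.0196 to 0.492 CPM in muscles, and whether both tissues' libraries were made alike was not tested.

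**Figure D2:**
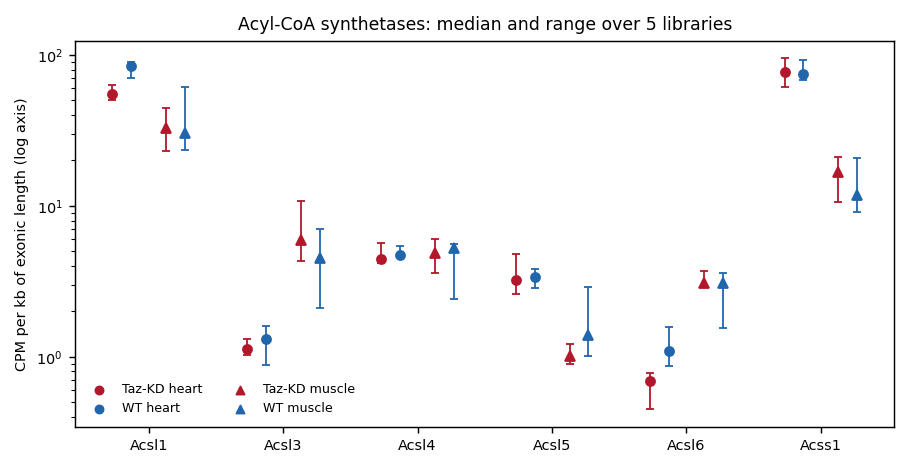
Median (points) and range (bars) over 5 libraries of CPM per kb of exonic length, on a log axis, for the 6 activation members in Taz-KD (red) and WT (blue) hearts (circles) and muscles (triangles). Acsl1 lies lower in Taz-KD hearts (54.8) than in WT hearts (84.8) with no overlap, and Acsl6 is the lowest heart value of the 6.

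The promoter of Acsl6 is shown because this gene changed most. Promoter windows (250 bases before to 50 after a RefSeq start, GRCm38.p6) were available for 34 of the 42 members. They were searched on both strands for AGGTCA, the core site bound by nuclear receptors such as the PPARs, printed in capitals:
Acsl6, chr11:54303574-54303873, plus strand: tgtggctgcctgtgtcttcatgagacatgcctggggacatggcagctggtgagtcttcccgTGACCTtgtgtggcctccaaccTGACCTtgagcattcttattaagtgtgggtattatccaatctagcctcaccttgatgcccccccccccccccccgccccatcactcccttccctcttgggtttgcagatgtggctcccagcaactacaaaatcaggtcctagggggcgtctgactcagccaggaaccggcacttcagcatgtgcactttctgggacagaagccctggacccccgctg
This window of Acsl6 holds the core site 2 times, whereas its other annotated starts hold none. The site was found in 6 of the 34 members (Acacb, Acadm, Acadvl, Acsl6, Cpt1a and Echs1), or 17.6%, and in 16.3% of all 32851 windows. Its direct repeat with a single base between was in 0 of 34 members and in 0.0396% of windows. The composite element of ATF4 and C/EBP factors, TGATGCAA, was in 1 member, Echs1, and in 0.895% of windows. The members are counted as genes with a match in any of their 39 windows, whereas the background counts single windows. The 2 shares are therefore not directly comparable. A match says only that these letters occur there.

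In the carnitine shuttle 3 of 6 members fell: Cpt2, Slc25a20 and Crat. Cpt2 (ENSMUSG00000028607, chromosome 4 from 107903981 to 107923610), the inner-membrane transferase that returns the acyl group to coenzyme A, measured 119, 122, 123, 131 and 125 CPM in Taz-KD hearts, against 135, 172, 177, 178 and 161 CPM in WT hearts. R3 was the WT heart nearest to the Taz-KD group, while the other 4 WT hearts lay between 161 and 178 CPM (log2 fold change -0.41, SE 0.07, adjusted p = 0.00179, edgeR). The carnitine-acylcarnitine translocase Slc25a20 (ENSMUSG00000032602, chromosome 9 from 108662088 to 108684641) measured 92.2, 81.3, 86.1, 95.6 and 91.1 CPM in Taz-KD hearts, against 98.6, 111, 109, 116 and 102 CPM in WT hearts and was lower without overlap (log2 fold change -0.26, SE 0.06, adjusted p = 0.00897, edgeR). Crat (ENSMUSG00000026853, chromosome 2 from 30400471 to 30415813), which makes short-chain acylcarnitines from acetyl-CoA, measured 326, 310.3, 326, 321 and 327 CPM in Taz-KD hearts, against 335, 378, 375, 387 and 358 CPM in WT hearts. Its groups were apart by a small margin (log2 fold change -0.19, SE 0.06, adjusted p = 0.0293, edgeR), and the call was lost in 7 of the 10 fits that left out a heart, those without R2, R1793, R1796, R1797, R1791, R1792 or R1795, where the adjusted p over all alternatives ran from 0.000876 to 0.327.

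The other 3 shuttle members did not pass. Cpt1b, the muscle form of the malonyl-CoA-sensitive transferase, measured 10.1, 8.70, 9.06, 10.3 and 12.1 CPM in Taz-KD hearts, against 7.60, 10.6, 8.96, 9.91 and 8.67 CPM in WT hearts, with the groups overlapping (log2 fold change 0.14, SE 0.11, adjusted p = 0.427, edgeR). Its level is uncertain, since 2744 of its 3372 exonic bases are shared on the same strand with the readthrough gene Gm44502. Cpt1a, the liver form, measured 98.4 to 135 CPM in Taz-KD hearts, against 71.1 to 121 CPM in WT hearts (log2 fold change 0.21, SE 0.13, adjusted p = 0.304). The carnitine importer Slc22a5 had 20.2 to 30.2 CPM in Taz-KD hearts, against 25.4 to 41.4 CPM in WT hearts (log2 fold change -0.35, SE 0.15, adjusted p = 0.110); without the WT heart R1800 it passed (adjusted p = 0.0465, edgeR).

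For 3 shuttle members the study designed qPCR primers, which are shown because they place the qPCR readout of the study on the transcripts counted here. They were matched to GENCODE transcripts, with capitals marking primer bases past an exon junction:
Cpt1b forward: gtcgcttcttcaaggtctgg
Cpt1b reverse: aagaaagcagcacgttcgat
Cpt2 forward: acctgctcgctcaggataaa
Cpt2 reverse: tgtcttcagaaaccgcactg
Slc25a20 forward: ggatgaacttagCTACCCA
Slc25a20 reverse: actggcaggaacatCTC
The Cpt1b pair amplifies 232 bases of exons 10 and 11 on chromosome 15 (89420791 to 89421489, minus strand), a stretch also present in full in the readthrough transcript Gm44502. The Cpt2 pair spans 203 bases from exon 3 to exon 4 (chromosome 4, 107908071 to 107912688), and the Slc25a20 pair 235 bases from exon 3 to exon 6 (chromosome 9, 108672535 to 108681985), with both primers across a junction. Neither the Cpt2 nor the Slc25a20 amplicon lies in that readthrough transcript. Both primers of a pair were found in 1 of 4 transcripts of Cpt1b, 3 of 6 of Cpt2 and 1 of 3 of Slc25a20. By qPCR the paper reported lower Cpt1b, Cpt2 and Slc25a20 (as Cact) in Taz-KD hearts, and by western blot lower CPT2 protein. Its qPCR had 3 per genotype and was normalized to a ribosomal RNA of the mitochondrial genome, and its western blot used isolated mitochondria. The counts here come from 5 hearts per genotype and were scaled by TMM, so the measures are unlike. In the counts used here Cpt2 and Slc25a20 were lower as well, whereas Cpt1b did not pass and its estimate lay above 0.

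**Figure D3:**
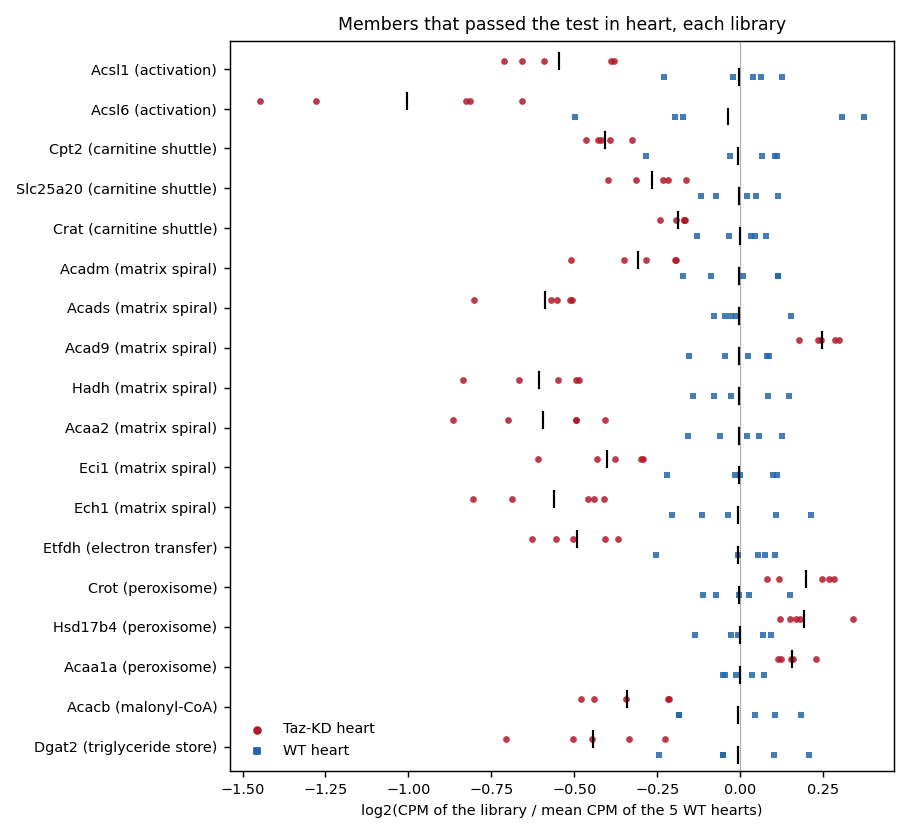
Log2 ratio of each library's CPM to the mean of the 5 WT hearts for the 18 members that passed in heart, in Taz-KD (red circles, above) and WT (blue squares, below); black ticks are the means of the log2 ratios. The red and blue points overlap only for Crot and Dgat2, and Acsl6 has the widest spread in both genotypes.

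The matrix spiral held 15 members, of which 6 fell, 1 rose and 8 did not pass, with a median log2 fold change of -0.21. The falls were among enzymes of medium and short chains and of the auxiliary reactions. Hadh (ENSMUSG00000027984, chromosome 3 from 131233419 to 131272101), the short-chain hydroxyacyl-CoA dehydrogenase, measured 245, 193, 218, 236 and 247 CPM in Taz-KD hearts, against 313, 382, 338, 366 and 327 CPM in WT hearts, so that the highest Taz-KD heart lay well below the lowest WT heart (log2 fold change -0.60, SE 0.08, adjusted p = 0.000222, edgeR). Acads (ENSMUSG00000029545, chromosome 5 from 115110299 to 115119346), the short-chain acyl-CoA dehydrogenase, measured 77.5, 75.4, 77.7, 74.4 and 63.4 CPM in Taz-KD hearts, against 108, 105, 109.6, 123 and 107 CPM in WT hearts. It had the smallest adjusted p of all members, with R1798 lowest in Taz-KD and R1795 highest in WT (log2 fold change -0.59, SE 0.07, adjusted p = 6.96e-05, edgeR). Acaa2 (ENSMUSG00000036880, chromosome 18 from 74779197 to 74806208), the thiolase that ends the spiral, measured 261, 202, 227, 261 and 278 CPM in Taz-KD hearts, against 353, 383, 373, 402 and 330.5 CPM in WT hearts and was lower by a similar amount (log2 fold change -0.58, SE 0.09, adjusted p = 0.000551, edgeR). Acadm (ENSMUSG00000062908, chromosome 3 from 153922357 to 153944632), the medium-chain dehydrogenase, measured 532, 428, 532, 478 and 500.1 CPM in Taz-KD hearts, against 541, 659.6, 613, 659 and 573 CPM in WT hearts. Here the gap between the groups was narrow, since R2 and R1796 came close to R3 (log2 fold change -0.30, SE 0.08, adjusted p = 0.0166, edgeR).

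Of the 4 enzymes that prepare unsaturated chains for the spiral, Eci1 and Ech1 fell. Eci1 (ENSMUSG00000024132, chromosome 17 from 24426641 to 24439348), an enoyl-CoA isomerase, measured 105, 84.4, 105, 95.5 and 99.2 CPM in Taz-KD hearts, against 111, 138, 129, 139 and 128 CPM in WT hearts (log2 fold change -0.40, SE 0.08, adjusted p = 0.00284, edgeR). Ech1 (ENSMUSG00000053898, chromosome 7 from 28825217 to 28832247), the dienoyl-CoA isomerase, measured 411, 319, 406, 346 and 419 CPM in Taz-KD hearts, against 483, 646, 543, 600.1 and 514 CPM in WT hearts (log2 fold change -0.55, SE 0.10, adjusted p = 0.00166, edgeR). Neither overlapped, and R1793 was the lowest Taz-KD heart for both. Decr1, the dienoyl-CoA reductase, had 171 to 218 CPM in Taz-KD hearts, against 194 to 262 CPM in WT hearts and did not pass (log2 fold change -0.25, SE 0.09, adjusted p = 0.0677); it passed in 7 of 21 alternatives, among them the fits without R3 or without R1798. Eci2 was level (log2 fold change 0.00, SE 0.07, adjusted p = 0.985).

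The promoters of Acads and Acadm are shown as those of the acyl-CoA dehydrogenases called lower; the window of Acadm holds the nuclear receptor core site (in capitals) and that of Acads does not:
Acads, chr5:115119297-115119596, minus strand: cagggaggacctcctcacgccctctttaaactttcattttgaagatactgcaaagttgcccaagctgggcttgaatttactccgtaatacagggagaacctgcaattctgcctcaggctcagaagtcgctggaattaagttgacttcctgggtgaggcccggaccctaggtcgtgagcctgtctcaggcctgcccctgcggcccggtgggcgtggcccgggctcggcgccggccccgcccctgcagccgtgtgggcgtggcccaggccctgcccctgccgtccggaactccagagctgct
Acadm, chr3:153944594-153944893, minus strand: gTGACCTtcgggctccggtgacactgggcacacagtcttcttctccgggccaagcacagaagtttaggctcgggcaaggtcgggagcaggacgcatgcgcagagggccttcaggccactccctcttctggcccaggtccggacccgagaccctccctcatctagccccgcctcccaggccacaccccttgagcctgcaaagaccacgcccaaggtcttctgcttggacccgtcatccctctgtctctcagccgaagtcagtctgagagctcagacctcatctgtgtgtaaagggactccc

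The enzymes of long chains, Acadvl, Acadl, Hadha and Hadhb, did not pass. Acadvl, the very-long-chain dehydrogenase of the inner membrane, measured 552, 462, 519, 498 and 578 CPM in Taz-KD hearts, against 522, 672, 600.4, 628 and 594 CPM in WT hearts, with R3 inside the Taz-KD range, and did not pass (log2 fold change -0.21, SE 0.08, adjusted p = 0.0825, edgeR; adjusted p 0.0208 to 0.496 over the alternatives, passing with DESeq2 and without R3). Hadha and Hadhb, the subunits of the trifunctional protein that completes long-chain turns, had log2 fold changes of -0.21 (adjusted p = 0.103, edgeR) and -0.14 (adjusted p = 0.239, edgeR). Hadha passed without R3 and with DESeq2. These subunits are transcribed away from each other from a shared start region on chromosome 5, and their promoter windows share 228 bases. Acadl, the long-chain dehydrogenase, had 567 to 669 CPM in Taz-KD hearts, against 562 to 734 CPM in WT hearts (log2 fold change -0.08, SE 0.08, adjusted p = 0.503), and Echs1 and Hsd17b10, which hydrate and oxidise shorter chains, gave -0.14 and 0.09 without passing. Whether the long-chain and short-chain enzymes differ in their change was not tested. Acadvl shares 1151 of its 2686 exonic bases with Dvl2 on the other strand. The paper reported lower Acadvl by qPCR, normalized as for Cpt2 above, and lower ACADVL protein in isolated mitochondria of Taz-KD hearts. Acadvl did not pass in the main fit here, which rests on an unlike measure. The study's mouse primers for Acadvl bind exons 2 and 4 (chromosome 11, 70014635 to 70015156, minus strand, 175 bases):
Acadvl forward: tatctctgcccagcgacttt
Acadvl reverse: tgggtatgggaacacctgat

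Acad9 went the other way. Acad9 (ENSMUSG00000027710, chromosome 3 from 36065979 to 36092853), an acyl-CoA dehydrogenase that also serves as an assembly factor of respiratory complex I, measured 33.3, 34.8, 34.5, 32.0 and 33.5 CPM in Taz-KD hearts, against 28.7, 29.9, 25.4, 30.0 and 27.4 CPM in WT hearts. Every Taz-KD heart lay above every WT heart (log2 fold change 0.25, SE 0.06, adjusted p = 0.00966, edgeR). It shares 559 of 8192 exonic bases with Gm43079 on the same strand, so that part of its counts is uncertain.

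In electron transfer, Etfdh (ENSMUSG00000027809, chromosome 3 from 79603788 to 79629500), the oxidoreductase that passes the electrons to ubiquinone, measured 293, 269, 282, 313 and 321 CPM in Taz-KD hearts, against 348, 446, 431, 437 and 413 CPM in WT hearts and fell without overlap (log2 fold change -0.49, SE 0.08, adjusted p = 0.000786, edgeR). Etfa, a subunit of the flavoprotein, had 220.2 to 289.5 CPM in Taz-KD hearts, against 276 to 341 CPM in WT hearts and did not pass (log2 fold change -0.20, SE 0.09, adjusted p = 0.115). Etfb, its partner subunit, had 13.3 to 24.3 CPM in Taz-KD hearts, against 13.9 to 15.7 CPM in WT hearts (log2 fold change 0.19, SE 0.14, adjusted p = 0.378), but 678 of its 1164 exonic bases are shared with Gm45233 and Mir7051 on the same strand, so its level is uncertain.

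Of the 4 peroxisomal members 3 rose, each by a small amount. Crot (ENSMUSG00000003623, chromosome 5 from 8966033 to 8997324), which exports shortened chains from the peroxisome as carnitine esters, measured 38.1, 42.7, 37.1, 41.7 and 42.3 CPM in Taz-KD hearts, against 33.3, 38.9, 35.0, 35.7 and 32.5 CPM in WT hearts. R1796 and R2 lay within the WT range, so these groups overlapped (log2 fold change 0.20, SE 0.07, adjusted p = 0.0420, edgeR). Hsd17b4 (ENSMUSG00000024507, chromosome 18 from 50128201 to 50196269), the D-bifunctional protein, measured 96.4, 98.3, 97.4, 109.8 and 94.2 CPM in Taz-KD hearts, against 79.0, 86.3, 92.6, 91.0 and 85.1 CPM in WT hearts, with R1797 highest (log2 fold change 0.19, SE 0.06, adjusted p = 0.0361, edgeR). Acaa1a (ENSMUSG00000036138, chromosome 9 from 119339676 to 119350299), the peroxisomal thiolase, measured 55.3, 56.5, 59.5, 56.7 and 54.9 CPM in Taz-KD hearts, against 50.3, 52.1, 53.4, 49.0 and 49.2 CPM in WT hearts (log2 fold change 0.16, SE 0.05, adjusted p = 0.0367, edgeR). For both of these the groups were apart. Ehhadh, the L-bifunctional protein, had 10.2 to 14.1 CPM in Taz-KD hearts, against 8.95 to 19.7 CPM in WT hearts and did not pass (log2 fold change -0.42, SE 0.19, adjusted p = 0.141); without R1800, its lowest WT heart, it was called lower. The 3 rises were small, 1.11- to 1.15-fold, and depended on the libraries. Crot lost its call in 7 of the 10 fits without a heart (R1793, R1797, R1798, R3, R1792, R1795 or R1800), Hsd17b4 in 7 (R2, R1793, R1796, R1797, R3, R1791 or R1800) and Acaa1a in 7 (R2, R1793, R1796, R1797, R3, R1795 or R1800). None of the 3 passed with upper-quartile factors or with library sizes alone, though each stayed above 0 (adjusted p over all alternatives 0.0197 to 0.687 for Crot, 0.0258 to 0.359 for Hsd17b4 and 0.0138 to 0.447 for Acaa1a, edgeR, DESeq2 or limma-voom).

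Of the malonyl-CoA pair, Acacb (ENSMUSG00000042010, chromosome 5 from 114146535 to 114250761), the acetyl-CoA carboxylase that forms malonyl-CoA at the mitochondrial surface, measured 605, 519, 505, 606 and 555 CPM in Taz-KD hearts, against 620.2, 799, 758, 726 and 619 CPM in WT hearts, lower in each Taz-KD heart than in each WT heart (log2 fold change -0.34, SE 0.09, adjusted p = 0.0161, edgeR). Without the WT heart R1792 its adjusted p was 0.0524. Mlycd, the decarboxylase that removes malonyl-CoA, had 64.5 to 90.0 CPM in Taz-KD hearts, against 69.6 to 102 CPM in WT hearts and did not pass (log2 fold change -0.20, SE 0.12, adjusted p = 0.255).

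In the triglyceride store, Dgat2 (ENSMUSG00000030747, chromosome 7 from 99153658 to 99182719), which joins the last acyl chain to diacylglycerol, measured 210.4, 202, 176, 245 and 227 CPM in Taz-KD hearts, against 242, 331, 308, 277 and 276 CPM in WT hearts. Only the Taz-KD heart R1797 and the WT heart R3 overlapped (log2 fold change -0.43, SE 0.10, adjusted p = 0.00716, edgeR). Dgat1, its unrelated counterpart, had 17.0 to 20.7 CPM in Taz-KD hearts, against 16.0 to 18.3 CPM in WT hearts (log2 fold change 0.09, SE 0.07, adjusted p = 0.423). Pnpla2, the adipose triglyceride lipase that starts release from the store, had 274 to 299 CPM in Taz-KD hearts, against 214 to 282 CPM in WT hearts and narrowly missed the threshold (log2 fold change 0.22, SE 0.08, adjusted p = 0.0510); it passed in 6 of 21 alternatives, DESeq2, limma-voom and the fits without R1791 or R1792 among them. The WT heart R3 was the lowest of its group for Dgat2 and Pnpla2 and carried 54.8 CPM of summed adipocyte markers, whose part in these values was not tested.

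The WT heart R3 often lay nearest to the Taz-KD group. It was the lowest WT heart for 10 of the 14 members that fell and for 24 of all 42, and its summed level of the 42 members was 10123 CPM, against 11067 to 12704 CPM in the other 4 WT hearts and 9214 to 10574 CPM in Taz-KD hearts. R3 was also the highest of all hearts in summed fibroblast markers, at 1772 CPM, against 754 to 1176 CPM in the other 4 WT hearts and 623 to 1154 CPM in Taz-KD hearts. The same held for macrophage markers, at 266 CPM, against 196 to 225 CPM and 168 to 215 CPM. The part of these cells in the values of R3 was not tested. R1793 was the lowest Taz-KD heart for 9 of the 14 members that fell. Without R3 and R1793, the hearts with the most adipocyte marker RNA (chosen after seeing the data), 16 members passed, where 19.5% of all genes did. Of the 16, 15 were lower and 15 were shared with the 18. Without R3 alone 18 passed, 17 lower, where 23.1% of all genes did. The rises of Crot, Hsd17b4 and Acaa1a were not called in either fit.

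Of 51 other listed genes of the pathway, 48 were tested in heart. Of these 15 fell, or 31.3%, where 10.3% of all genes did, and 7 rose, or 14.6%, close to the 14.4% of all genes. Acot2, a mitochondrial thioesterase that splits long-chain acyl-CoA, measured 226 to 327 CPM in Taz-KD hearts, against 66.6 to 104 CPM in WT hearts (log2 fold change 1.79, SE 0.13, adjusted p = 2.09e-06, edgeR). Acox2, the peroxisomal oxidase of branched chains and bile acid intermediates, measured 5.62 to 14.4 CPM in Taz-KD hearts, against 0.188 to 0.560 CPM in WT hearts (log2 fold change 4.36, SE 0.34, adjusted p = 4.24e-06, edgeR), a large ratio at a low level. G0s2, an inhibitor of Pnpla2, was also higher, at 19.2 to 26.2 CPM in Taz-KD hearts, against 13.2 to 15.0 CPM in WT hearts (log2 fold change 0.70, SE 0.10, adjusted p = 0.000227, edgeR). Lower genes included the thioesterase Acot7 (log2 fold change -0.62, SE 0.07, adjusted p = 3.88e-05), the phytanoyl-CoA hydroxylase Phyh (log2 fold change -0.58, SE 0.08, adjusted p = 0.000243), Acad12 (log2 fold change -0.63, SE 0.09, adjusted p = 0.000245) and Acad11 (log2 fold change -0.42, SE 0.07, adjusted p = 0.000819), both of the acyl-CoA dehydrogenase family, and the peroxisomal carrier and thiolase Scp2 (log2 fold change -0.39, SE 0.06, adjusted p = 0.000857, all edgeR). The regulator Ppara, the nuclear receptor that drives fatty acid oxidation genes, measured 30.5 to 46.9 CPM in Taz-KD hearts, against 45.6 to 71.1 CPM in WT hearts and was lower (log2 fold change -0.52, SE 0.14, adjusted p = 0.0156, edgeR). Its coactivator Ppargc1a measured 112 to 215 CPM in Taz-KD hearts, against 146 to 231 CPM in WT hearts and did not pass (log2 fold change -0.16, SE 0.18, adjusted p = 0.576). Peroxisomal genes outside the 42 were split, with 3 of 10 higher and 3 lower.

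In skeletal muscle, 0 of the 42 members passed (edgeR; also 0 with DESeq2 and with limma-voom), where 0.0186% of all 16145 genes tested were called, 0.0124% higher and 0.00619% lower. An unadjusted p under 0.05 was reached by 3 members: Acsl5 (log2 fold change -0.74, SE 0.26, adjusted p = 0.311), Dgat1 (log2 fold change -0.86, SE 0.36, adjusted p = 0.324) and Dgat2 (log2 fold change -1.29, SE 0.54, adjusted p = 0.321, edgeR). The genotypes overlapped for all 42, where 2.14% of genes tested did not overlap. The median log2 fold change was -0.05, with 25 members below 0. The hearts were more alike than the muscles: the median coefficient of variation of the members was 8.88% in Taz-KD and 9.31% in WT hearts, and 19.1% in Taz-KD and 29.5% in WT muscles. The SE of the log2 fold change was 0.07 for Cpt2 and 0.08 for Hadh in heart, against 0.15 and 0.18 in muscle.

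Values of the shuttle and dehydrogenase members in muscle show this spread. Muscles are in the order A34, A39, A52, A56 and A58 for Taz-KD and A33, A40, A51, A55 and A57 for WT. Cpt2 measured 91.2, 79.5, 56.3, 74.2 and 80.0 CPM in Taz-KD muscles, against 74.1, 89.0, 53.2, 76.0 and 70.9 CPM in WT muscles (log2 fold change 0.07, SE 0.15, adjusted p = 0.823, edgeR). Slc25a20 measured 80.8, 91.6, 62.6, 76.6 and 88.8 CPM in Taz-KD muscles, against 81.3, 98.8, 58.5, 97.7 and 75.7 CPM in WT muscles (log2 fold change -0.04, SE 0.16, adjusted p = 0.901, edgeR). Acadvl measured 155, 134, 92.0, 122 and 179 CPM in Taz-KD muscles, against 121, 203, 91.8, 131 and 134 CPM in WT muscles (log2 fold change 0.00, SE 0.22, adjusted p = 0.996, edgeR). In each of the 3 members above A52 was the lowest Taz-KD muscle and A51 the lowest WT muscle, and together they were lowest in their groups for 28 and 22 of the 42 members. Cpt1b measured 5.85, 5.10, 4.77, 4.63 and 11.8 CPM in Taz-KD muscles, against 3.98, 9.57, 5.22, 15.3 and 4.73 CPM in WT muscles, highest in A58 and A55 (log2 fold change -0.27, SE 0.40, adjusted p = 0.733, edgeR). Of the other listed genes of the pathway, 0 of 48 tested passed in muscle (edgeR, DESeq2 and limma-voom; 10 at an unadjusted edgeR p under 0.05). Ppara measured 2.46 to 10.6 CPM in Taz-KD muscles, against 1.94 to 11.5 CPM in WT muscles (log2 fold change 0.17, SE 0.48, adjusted p = 0.868, edgeR).

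Fibre and fat markers are given here beside 2 members, Fabp3 and Dgat2. Slow fibre markers summed to 1987, 87.6, 357, 889.6 and 4076 CPM in Taz-KD, against 512, 10468, 2134, 17859.5 and 329 CPM in WT, and Fabp3, the carrier of oxidative fibres, measured 617, 322, 188, 504 and 941 CPM in Taz-KD muscles, against 248, 829, 324, 1395 and 346 CPM in WT muscles. The highest muscle of each genotype, A58 and A55, was the same for both. Adipocyte markers summed to 15.7, 220.3, 141, 35.8 and 90.5 CPM in Taz-KD, against 2133, 69.8, 446, 732 and 49.3 CPM in WT, and Dgat2, which is abundant in fat, measured 99.1, 47.0, 18.6, 43.4 and 95.0 CPM in Taz-KD muscles, against 278, 150.1, 61.7, 197 and 54.9 CPM in WT muscles. A33 was the highest muscle for both, whereas among Taz-KD muscles A34 was lowest in adipocyte markers and highest in Dgat2. A33 was also highest for Dgat1 at 41.9 CPM and Acsl5 at 14.2 CPM. All 6 slow fibre and all 6 adipocyte markers were detected, and 0 of 6 in each list passed the test (edgeR; unadjusted p under 0.05 for 0 slow fibre and 5 adipocyte markers; DESeq2 called 0 and 1, limma-voom 0 and 0). Fast fibre markers summed to 103122 to 166829 CPM in Taz-KD muscles, against 51811 to 157082 CPM in WT muscles. Without A33 and A55 (an alternative chosen after seeing the data) 0 members passed. The part of fibre type and fat in these values was not tested.

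**Figure D4:**
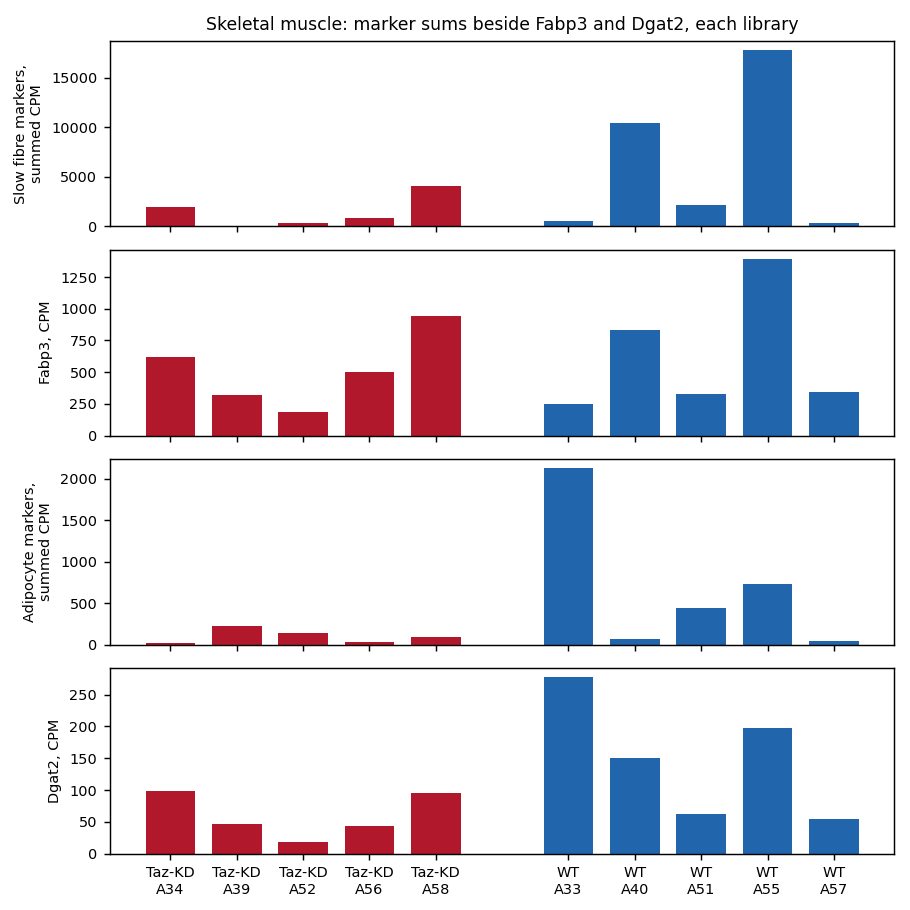
Bars give, for each of the 5 Taz-KD (red, left) and 5 WT (blue, right) muscles, the summed CPM of 6 slow fibre markers, the CPM of Fabp3, the summed CPM of 6 adipocyte markers and the CPM of Dgat2. A55 is highest for slow fibre markers and Fabp3, and A33 for adipocyte markers and Dgat2.

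The difference between tissues was tested as an interaction over 20 libraries, and 2 of the 42 members passed, both with the lower value in heart. Over all 20612 genes tested 4.62% passed, 3.07% with a higher value in heart and 1.55% with a lower one. Acsl6 had an effect in heart minus effect in muscle of -1.23, SE 0.31, adjusted p = 0.0262 (edgeR; 95% interval -1.84 to -0.63). In muscle Acsl6 measured 30.2, 32.5, 36.8, 30.4 and 29.3 CPM in Taz-KD muscles, against 22.7, 30.7, 35.5, 15.4 and 33.7 CPM in WT muscles, with the WT muscles A55 and A33 lowest and the groups overlapping (log2 fold change 0.21, SE 0.20, adjusted p = 0.589). Acads had a difference of -0.54, SE 0.14, adjusted p = 0.0303 (edgeR; 95% interval -0.81 to -0.27), and measured 70.3, 67.8, 54.3, 72.6 and 73.9 CPM in Taz-KD muscles, against 74.7, 86.8, 59.1, 77.9 and 69.1 CPM in WT muscles (log2 fold change -0.12, SE 0.12, adjusted p = 0.617). Both calls rest on few libraries. Without the Taz-KD heart R1793 neither passed. Acsl6 was also lost without R1796 or R1791, and Acads without R1798, R1795, A34, A39 or A56 (adjusted p over the alternatives 0.00352 to 0.0569 for Acsl6 and 0.00304 to 0.0818 for Acads). Cpt2 was added without A52, without A40 and with DESeq2, and Acacb and Crat without A57. For Hadh the difference was -0.46, SE 0.20, adjusted p = 0.201 and for Cpt2 -0.54, SE 0.18, adjusted p = 0.0865 (edgeR), so that neither effect was shown to differ between the tissues.

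**Figure D5:**
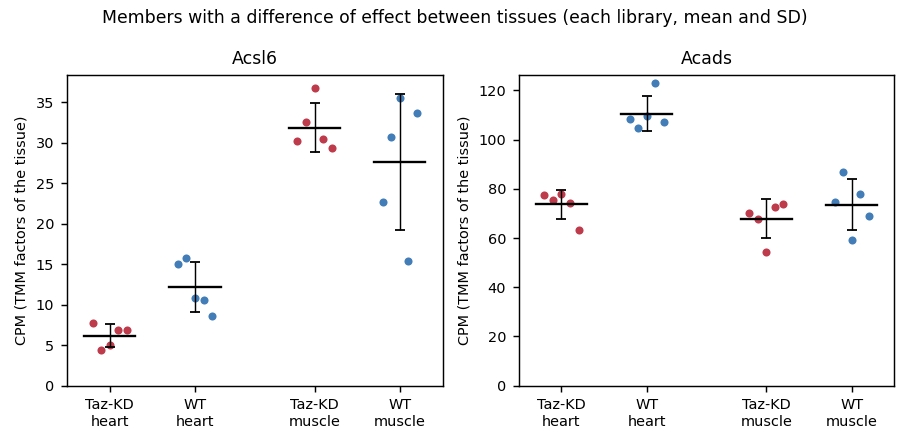
CPM of Acsl6 and Acads in each library (points) with mean and SD (lines), in Taz-KD and WT hearts and Taz-KD and WT muscles from left to right. Acsl6 is 4.46 to 7.71 CPM in Taz-KD hearts and 8.60 to 15.7 CPM in WT hearts, while the muscles of both genotypes overlap.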

How the data were processed

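RNA was sequenced from whole hearts and femur muscle of Taz-KD and WT mice, 1 library per mouse, 5 per genotype and tissue. Per the labels and the study's methods, the authors removed ribosomal RNA, made stranded libraries, sequenced 150 bp paired ends, aligned to GRCm38 with STAR, counted reads per gene with featureCounts 1.6.4 and used DESeq2 2.11.40.6 for their own tests. That description does not separate the tissues, but their levels of Rn7sk, given above as lacking a poly(A) tail, were far apart. Muscles lay at 0.0196 to 0.492 CPM, whereas hearts gave 7989 to 11240 CPM. Whether the muscle libraries were prepared as described was not tested. The deposited values are unnormalized counts per gene. The strand setting, the handling of multiply mapped reads and the annotation release were not given in the sources used here.

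Ensembl IDs were matched to symbols with GENCODE M21 (GRCm38). Genes were kept by filterByExpr, scaled by TMM and tested within a tissue with edgeR 4.0.16 (R 4.3.3; robust quasi-likelihood test, Benjamini-Hochberg over all genes tested, 0.05), with an interaction fit for the difference between tissues. DESeq2 1.42.0 and limma 3.58.1 (voom), other scalings and filters and omitted libraries were alternatives. Scripts were tested on simulated data. No 2 libraries of a group were identical or differed by as little as sampling noise (chi-square per gene at least 15.1). Per-length levels divide CPM by exonic length. Values in every library are given for members called in any test, and for Cpt1b, Cpt2, Slc25a20 and Acadvl, which the study also measured by qPCR; among other pathway genes, up to 8 with the smallest adjusted p, Ppara and Ppargc1a are named, and a regulator or gene named besides was chosen after its values were seen. The members and gene lists were chosen with earlier results of these data known.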

Additional observations from a re-analysis of the deposited data

Results flagged for a closer look

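Of 168 groups of 5 libraries (42 members, 2 tissues, 2 genotypes), 7 held a library far from the other 4, and chance alone flags about 1 in 20 groups. In heart these were Acads, lowest in the Taz-KD heart R1798 at 63.4 CPM (nearest 74.4 CPM) and highest in the WT heart R1795 at 123 CPM (nearest 109.6 CPM), Hsd17b4, highest in the Taz-KD heart R1797 at 109.8 CPM (nearest 98.3 CPM), and Acsl4, highest in the WT heart R1791 at 29.2 CPM (nearest 25.8 CPM). Both Acads values lie on the far side of their group from the other genotype. In muscle, Cpt1b was highest in the Taz-KD muscle A58 at 11.8 CPM (nearest 5.85 CPM), and Hsd17b10 and Etfb were highest in the WT muscle A55 at 64.8 CPM (nearest 48.4 CPM) and 23.5 CPM (nearest 11.9 CPM). A58 and A55 were also the muscles of their genotype with the most slow fibre marker RNA, whose part in these values was not tested.

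The edgeR interaction test called Acsl6 (heart minus muscle -1.23, SE 0.31, adjusted p = 0.0262) and Acads (-0.54, SE 0.14, adjusted p = 0.0303). Log2 fold changes were -0.97 in heart and 0.21 in muscle for Acsl6, and -0.59 and -0.12 for Acads. These 2 calls are 4.76% of the 42 members, close to the 4.62% called over all genes tested. Neither passed without the Taz-KD heart R1793, and each was also lost without some other libraries, as given above.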

How the results depend on the processing

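Of the 18 members called in heart, Acsl6, Cpt2, Acads, Hadh and Etfdh passed in all 21 alternatives, and no member was called in the other direction in any alternative. A joint fit of all 20 libraries called 5 members, all 5 lower and 0 higher, where 10.1% of all genes were called; that fit shares its estimate of spread with the muscles. Members called higher numbered 1 with upper-quartile factors, with library sizes alone, without the hearts R2 and R3, and without R1793 and R3 (added after seeing the data), against 4. Leaving out each library in turn gave 14 to 18 members called in heart, 12 to 17 lower and 1 to 4 higher. Over all genes these fits called 19.9% to 23.5%. In muscle such fits called 0 members. For the difference between tissues they called 0 to 4, all lower, where 2.90% to 9.76% of all genes were called. The 0 came without R1793, at 3.11% of all genes, and the 4 without A57, at 9.76%. DESeq2 called 22 members in heart, where it called 27.4% of all genes, and limma-voom 19, where it called 24.3%. The remaining alternatives in heart gave 16 to 19, where 13.2% to 26.7% of all genes were called. Library sizes alone moved the median log2 fold change of all genes in muscle to -0.16, against -0.02 with TMM. No paired analysis was possible because the labels give animal numbers that no 2 groups share. The members had at least 111 counts in every library. Counts of Cpt1b and Etfb depend on how reads in bases shared with other genes were assigned, which was not tested.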

Other observations

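The summed level of all 42 members was 10384, 9214, 10076, 10143 and 10574 CPM in Taz-KD, against 10123, 12704, 11916, 12139 and 11067 CPM in WT hearts, in the order of hearts used above. In muscle it was 6782, 5781, 4299, 5792 and 7182 CPM in Taz-KD, against 5884, 7668, 4455, 7882 and 5390.3 CPM in WT muscles. The matrix spiral made up the largest part of it in hearts, 4328 to 5157 CPM in Taz-KD hearts, against 5146 to 6489 CPM in WT hearts, and of the 8 steps the peroxisome the smallest, 203 to 222 CPM in Taz-KD hearts, against 176 to 201 CPM in WT hearts. WT animals varied more than Taz-KD animals for 36 of the 42 members in muscle and for 27 in heart, by their coefficients of variation.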
